A study of Homo sapiens with 3 samples.

Results

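Tetraspanin transcripts were described in HCT-116 cells, a human colon carcinoma line with wild-type APC and a CTNNB1ΔSer45 allele, which encodes a β-catenin that resists degradation. The family was taken by name: all genes called *TSPAN* followed by a number, together with *CD9*, *CD37*, *CD53*, *CD63*, *CD81*, *CD82*, *CD151*, *UPK1A* and *UPK1B*. This rule found 31 genes among the 23131 of the deposited table. It used no expression value, but the family was chosen to set *TSPAN5* beside its relatives, with earlier results of these data known. Cells were transfected on 2 consecutive days with a pool of anti-*APC* siRNA or with the transfection reagent alone, and they were harvested 48 hours later. The reagent-only library is called untransfected below, as in its title. There was 1 library for each condition, so no difference between them has a replicate check and no p-value was computed. A further library from cells given scrambled siRNA was not analysed here, so within the 2 libraries compared *APC* loss and receipt of an siRNA go together.

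Tetraspanins are membrane proteins with 4 membrane spans and 2 extracellular loops, and the larger loop is stabilised by conserved cysteines. They bind one another and bind integrins, adhesion molecules and proteases, and so gather these proteins into patches of the membrane. A subgroup called TspanC8, to which *TSPAN5* belongs, has 8 cysteines in the larger loop and escorts the protease ADAM10, a sheddase that cuts Notch receptors and cadherins, out of the endoplasmic reticulum. APC is the scaffold protein that promotes the breakdown of β-catenin and whose gene is mutated in most colorectal cancers.

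Expression was given in FPKM, mapped fragments scaled to transcript length and library size, which allows levels to be compared between genes. Low FPKM values came in steps that correspond to whole reads, and from these the depth was estimated at 23100000 reads for the anti-*APC* library and 25300000 for the untransfected library. The targeted gene, *APC*, was at 3.43 FPKM in the anti-*APC* library and 9.15 FPKM in the untransfected library, so that 37.5% of the transcript was left. Intervals given for log2 ratios below are 95% intervals that cover the counting of reads only and hold no spread between cultures. For *APC* the log2 ratio of anti-*APC* over untransfected was -1.41, with an interval of -1.53 to -1.30. Epithelial markers were abundant, with *EPCAM* at 170 and 190 FPKM and *KRT8* at 478 and 588 FPKM in the anti-*APC* and untransfected libraries, whereas *VIL1* was at 0.0313 and 0 FPKM. Of the 6 leukocyte markers, 5 were below 0.2 FPKM in both libraries, and *CD68*, which encodes a lysosomal glycoprotein, was at 5.01 and 8.91 FPKM.

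Expression of the family rested on a few members. *CD63*, whose protein resides in late endosomes and exosomes, was the most abundant at 173 FPKM in the anti-*APC* library and 191 FPKM in the untransfected library. *CD81*, which encodes a receptor for hepatitis C virus, was at 131 and 147 FPKM in the same order. *CD9*, whose protein is needed on the egg for fusion with sperm, was at 110 and 118 FPKM. All 3 were slightly lower in the anti-*APC* library, by a log2 ratio of -0.14 for *CD63*, -0.17 for *CD81* and -0.10 for *CD9*. *CD151*, which encodes the closest tetraspanin partner of the laminin-binding integrins, was at 109 and 141 FPKM. Its log2 ratio of -0.37 (interval -0.43 to -0.31) was the lowest of these 4 members, and 5.92% of the 1300 genes with a mean level within 2-fold of its own had a ratio as low or lower.

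**Figure D1:**
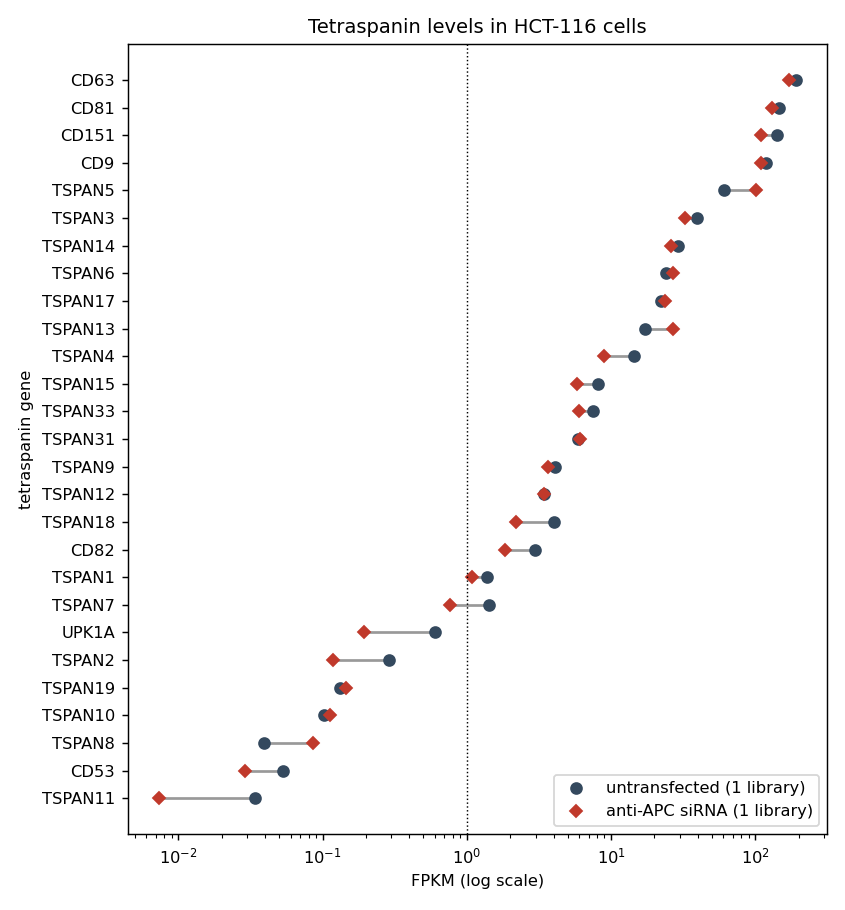
Levels of the tetraspanins above 0 in both libraries, in FPKM on a log axis with a dotted line at 1 FPKM, and 1 point for the anti-*APC* library and 1 for the untransfected library. *TSPAN5* stands at 102 FPKM against 60.6 FPKM, and 7 members lie below 1 FPKM in both libraries.

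*TSPAN5* had the highest log2 ratio of the members averaging 1 FPKM or more. It was expressed at 102 FPKM in the anti-*APC* library and at 60.6 FPKM in the untransfected library. The anti-*APC* value was 1.68 times the untransfected one, a log2 ratio of 0.75 with an interval of 0.70 to 0.80, from an estimated 7865 and 5122 reads. This difference of 41.3 FPKM exceeded that of each other member in either direction, the next being *CD151* with -32.1 FPKM. Among the 1985 genes with a mean level within 2-fold of that of *TSPAN5*, the median log2 ratio was 0.00 with quartiles of -0.13 and 0.12, and 26 genes, *TSPAN5* included, had a ratio at least as high (1.31%). *TSPAN5* held rank 5 in the family in both libraries, behind *CD63*, *CD81*, *CD9* and *CD151*, but its distance to them narrowed and its share of the summed tetraspanin FPKM was 12.7% in the anti-*APC* library against 7.17% in the untransfected library. The gene lies on chromosome 4 at 99391518 to 99579762 of GRCh37, on the minus strand, with 8 exons in its canonical transcript.

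*TSPAN13* was the other member averaging 1 FPKM or more that was at least 1.5-fold higher in the anti-*APC* library. It was at 26.7 FPKM against 17.2 FPKM in the untransfected library, 1.56 times as high, and its log2 ratio was 0.64 (interval 0.51 to 0.77). It moved from rank 10 to rank 8 of the family. Of the 4403 genes of like level, 55 had a ratio at least as high, *TSPAN13* included. *TSPAN13* lies on chromosome 7 at 16793380 to 16824161 of GRCh37, on the plus strand, with 6 exons in its canonical transcript.

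The sequences before the start sites of these 2 genes are shown because they are the 2 higher members, averaging 1 FPKM or more and at least 1.5-fold higher with anti-*APC* siRNA. The words marked include those of TCF factors, for which β-catenin is a coactivator. Whether any word bears on the ratios was not tested. *CD82* is shown beside them as the only lower member with a single matched start site. Each is the 250 bases before a start site in RefSeq on GRCh38.p14, read from 5′ to 3′ on the strand of the gene. Capitals mark the GC box GGGCGG on either strand, the binding word of SP and KLF factors, and 4 TCF words on either strand. The TCF words searched were CTTTGAA, its form with a last letter T, which is CTTTGAT, and the forms with T before the last letter, which are CTTTGTA for a last letter A, as well as CTTTGTT for a last letter T. The windows are chr4:98658612-98658861 (minus strand) for *TSPAN5*, chr7:16753505-16753754 (plus strand) for *TSPAN13* and chr11:44565413-44565662 (plus strand) for *CD82*.
TSPAN5: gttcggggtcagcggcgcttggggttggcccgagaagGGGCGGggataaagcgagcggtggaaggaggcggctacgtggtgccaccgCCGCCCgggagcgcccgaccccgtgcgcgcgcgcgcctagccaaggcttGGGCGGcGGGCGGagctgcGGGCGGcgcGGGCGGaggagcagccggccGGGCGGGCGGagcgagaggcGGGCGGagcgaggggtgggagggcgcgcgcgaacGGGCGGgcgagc
TSPAN13: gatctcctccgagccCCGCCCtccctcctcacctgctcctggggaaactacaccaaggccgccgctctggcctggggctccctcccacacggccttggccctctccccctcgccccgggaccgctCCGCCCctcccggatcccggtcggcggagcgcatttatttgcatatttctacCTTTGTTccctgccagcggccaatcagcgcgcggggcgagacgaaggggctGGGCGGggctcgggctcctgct
CD82: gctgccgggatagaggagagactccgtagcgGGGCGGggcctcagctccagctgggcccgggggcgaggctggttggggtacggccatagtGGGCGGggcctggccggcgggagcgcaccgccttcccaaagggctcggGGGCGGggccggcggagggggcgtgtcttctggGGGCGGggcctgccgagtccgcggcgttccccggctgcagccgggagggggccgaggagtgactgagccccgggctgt

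The *TSPAN5* window held 10 GC boxes, of which those that begin 66 and 62 bases before the start overlap, and 80.0% of its bases were G or C. Only 53 of 35116 windows of this length in RefSeq (0.151%) held 10 or more. The *TSPAN5* window held no TCF word and no AP-1 word (TGACTCA, searched on both strands). Sequence outside the windows, introns included, was not searched, so *TSPAN5* may have such words elsewhere. The *TSPAN13* window held 3 GC boxes and 1 TCF word, CTTTGTT, which begins 73 bases before the start. The *CD82* window held 4 GC boxes and neither of the other words. Over all windows, 42.6% held a GC box, 12% a TCF word and 4.20% an AP-1 word. Of the 23 tetraspanin genes with a matched window, 15 (65.2%) had a GC box in at least 1 window. A TCF word was in 6 genes (26.1%) and an AP-1 word in 2 (8.70%). The shares of all 27305 genes were 46.2%, 14.3% and 5.19%. The 23 genes had 43 windows, against 35116 for the 27305 genes, so members had more windows each in which a word could occur. By window, 26 of the 43 held a GC box, 6 a TCF word and 2 an AP-1 word. A match to these letters is a description of the sequence, and binding was not measured here.

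Of the 31 genes, 20 had a mean of at least 1 FPKM and a value above 0 in both libraries, and a member was counted as higher or lower where the libraries differed by at least 1.5-fold. *TSPAN5* and *TSPAN13* were the 2 higher members (10.0% of 20), where 2.56% of the 12063 genes under the same filter were higher. Since the family was chosen around *TSPAN5*, this share is a description only. There were 4 lower members (20.0%), *TSPAN4*, *TSPAN18*, *CD82* and *TSPAN7*, where 6.61% of all genes were lower. The other 14 were within 1.5-fold. Among the higher members the one nearest to the threshold was *TSPAN13*, and the nearest below it was *TSPAN6* with a log2 ratio of 0.16. Among the lower members the nearest was *TSPAN4* with -0.71, and the nearest that stayed within 1.5-fold was *TSPAN15* with -0.48. The median log2 ratio of the 20 members was -0.17, against -0.05 for all genes, and 15 of 20 members (75%) were lower to any extent with anti-*APC* siRNA, against 58.6% of all genes.

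**Figure D2:**
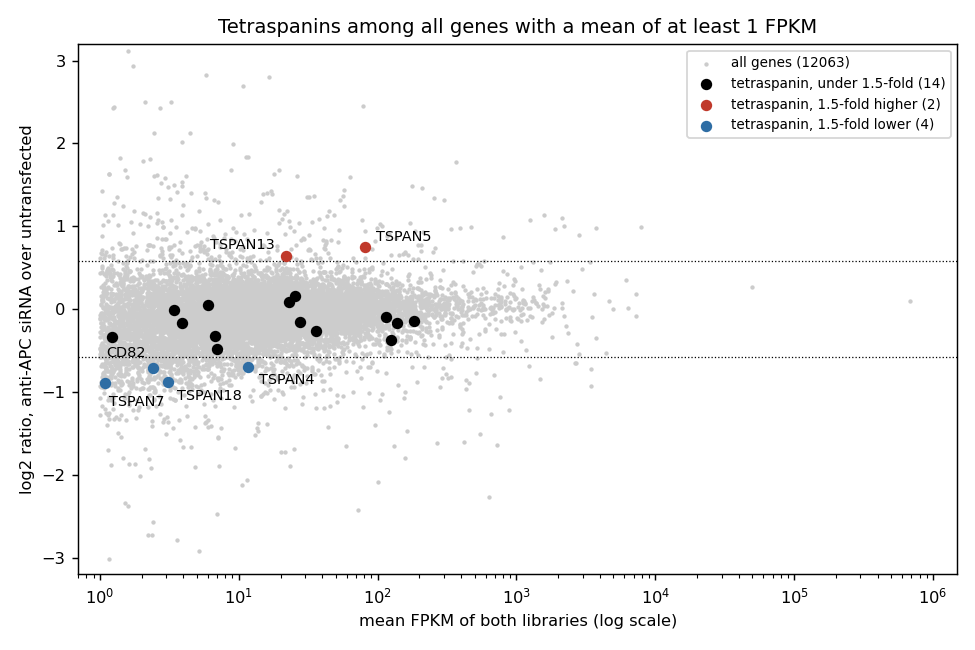
Log2 ratio of anti-*APC* over untransfected FPKM against the mean FPKM of both libraries on a log axis, with 12063 genes in grey, 14 tetraspanins within 1.5-fold in black, 2 higher in red and 4 lower in blue. *TSPAN5* lies at 0.75 above the bulk of genes of its level, and the lower members lie at means below 12 FPKM. Dotted lines mark 1.5-fold, and 7 genes lie beyond the axis limits of 3.2 either way.

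The 4 lower members were all of low or moderate abundance. *TSPAN4*, whose protein is known from migrasomes, the vesicles left on the retraction fibres of migrating cells, was at 8.88 FPKM in the anti-*APC* library and 14.5 FPKM in the untransfected library. Its log2 ratio was -0.71 with an interval of -0.92 to -0.50. *TSPAN4* was the most abundant of the 4, and 2.41% of 4615 genes of like level had a ratio as low or lower.

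*TSPAN18* was at 2.19 FPKM in the anti-*APC* library and 4.03 FPKM in the untransfected library, a log2 ratio of -0.88 with an interval of -1.11 to -0.65. The ratio was as low or lower in 3.89% of 2828 genes of like level. The table places *TSPAN18* at 1 locus with *TP53I11*, which was at 9.69 and 12.2 FPKM with a log2 ratio of -0.33, so reads could be divided between them.

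*CD82* encodes a protein described as a suppressor of metastasis. It was at 1.83 FPKM in the anti-*APC* library and 3.00 FPKM in the untransfected library, a log2 ratio of -0.71 with an interval of -1.07 to -0.34. A ratio as low or lower was found in 9.01% of 2520 genes of like level, the highest such share of the 4. *CD82* was inside 1.5-fold with log2(FPKM + 1), at -0.50, and when centred on genes of like level, at -0.54.

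*TSPAN7*, an X-linked gene best known for its role in neurons, was at 0.767 FPKM in the anti-*APC* library and 1.42 FPKM in the untransfected library. These values rested on an estimated 31 and 63 reads, and its log2 ratio of -0.89 had an interval of -1.51 to -0.27. With log2(FPKM + 1) it was inside 1.5-fold at -0.46. It had the lowest ratio of the 20 members and had the widest interval of the 6 that passed 1.5-fold. Of 1127 genes of like level, 6.65% had a ratio as low or lower.

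**Figure D3:**
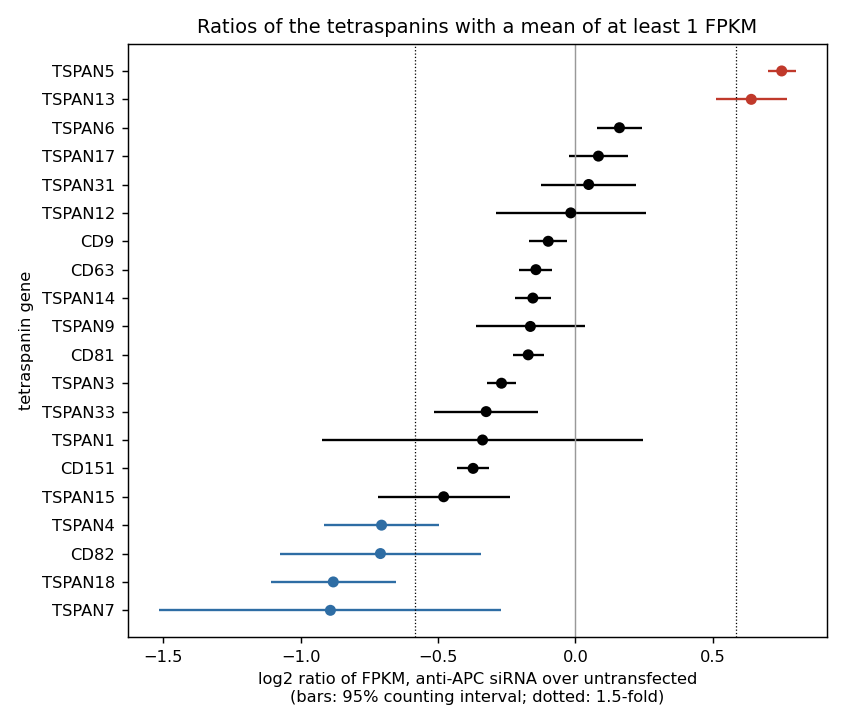
Log2 ratio of anti-*APC* over untransfected FPKM for each of the 20 members that passed the filter, with 95% intervals that cover counting error only. Ratios run from -0.89 for *TSPAN7* to 0.75 for *TSPAN5*, and the intervals widen toward the members of low abundance.

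The remaining members above 1 FPKM differed less. *TSPAN3* was at 32.6 FPKM in the anti-*APC* library and 39.3 FPKM in the untransfected library, a log2 ratio of -0.27. *TSPAN6* was at 27.0 and 24.2 FPKM, a log2 ratio of 0.16. *TSPAN6* had the third highest ratio of the 20 members that passed the filter and was still well inside 1.5-fold. *TSPAN9* was at 3.66 and 4.10 FPKM with a log2 ratio of -0.16 and an interval of -0.36 to 0.04. *TSPAN12*, whose protein assists Norrin signalling through the Wnt receptor Frizzled-4, was at 3.41 and 3.45 FPKM with a log2 ratio of -0.02 and an interval of -0.29 to 0.26. Its interval includes no difference, as do those of *TSPAN9*, *TSPAN1* and *TSPAN31*. *TSPAN1* was at 1.08 and 1.37 FPKM with a log2 ratio of -0.34 and an interval of -0.92 to 0.24. *TSPAN31*, a gene amplified in sarcomas together with *CDK4*, was at 6.08 and 5.88 FPKM with a log2 ratio of 0.05 (interval -0.13 to 0.22). It overlaps *CDK4*, which lies on the opposite strand at 174 and 176 FPKM, and reads without strand could not be told apart where the 2 genes overlap. *CD151* overlaps *POLR2L* on the opposite strand in the same way, and *TSPAN1* overlaps *P3R3URF* and *P3R3URF-PIK3R3*.

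Summed over all 31 genes, tetraspanin FPKM was 801 in the anti-*APC* library and 844 in the untransfected library, a ratio of 0.949. Without *TSPAN5* the sums were 699 and 784 FPKM, a ratio of 0.892. The 4 most abundant members, *CD63*, *CD81*, *CD9* and *CD151*, together held 65.3% of the sum in the anti-*APC* library and 70.7% in the untransfected library.

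The TspanC8 subgroup was expressed through *TSPAN5*, *TSPAN14* and *TSPAN17*, with less of *TSPAN15* and *TSPAN33* and almost no *TSPAN10*. *TSPAN14* was at 26.2 FPKM in the anti-*APC* library and 29.1 FPKM in the untransfected library, and *TSPAN17* was at 23.6 and 22.2 FPKM. Their log2 ratios were -0.16 (interval -0.22 to -0.09) and 0.08 (interval -0.02 to 0.19). *TSPAN15*, whose protein promotes the cutting of N-cadherin by ADAM10, was at 5.83 and 8.13 FPKM, a log2 ratio of -0.48 with an interval of -0.72 to -0.24. *TSPAN33* was at 5.95 and 7.46 FPKM, a log2 ratio of -0.32 with an interval of -0.52 to -0.13. *TSPAN5* was thus the only one of the 5 expressed TspanC8 members past 1.5-fold, and *TSPAN14*, *TSPAN15* and *TSPAN33* lay on the other side of 0. *TSPAN10* was at 0.113 and 0.103 FPKM, values whose ratio is that of equal read numbers.

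The subgroup summed to 163 FPKM in the anti-*APC* library and 128 FPKM in the untransfected library, a 1.28-fold difference. Its other 5 members summed to 61.6 and 67.1 FPKM, so the higher sum rested on *TSPAN5*. *TSPAN5* accounted for 62.3% of the subgroup's FPKM in the anti-*APC* library and 47.4% in the untransfected library. *ADAM10* itself was at 43.7 and 38.6 FPKM, a log2 ratio of 0.18.

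**Figure D4:**
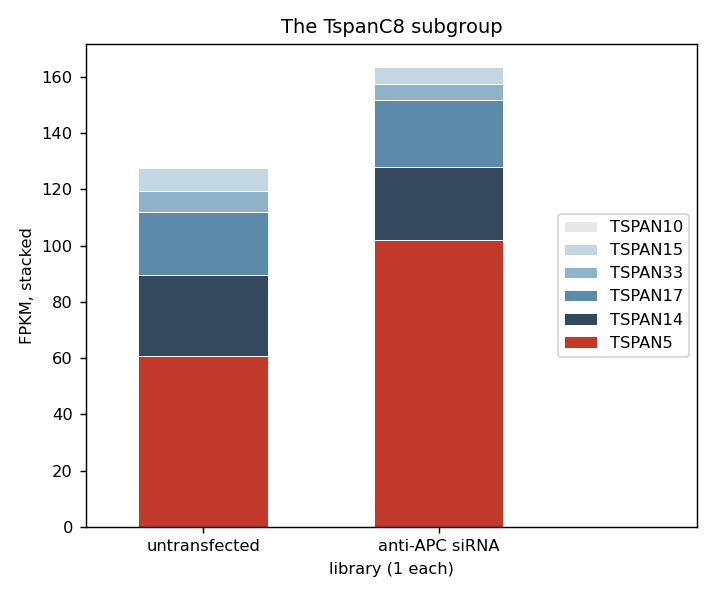
FPKM of the 6 TspanC8 members stacked for the untransfected and the anti-*APC* library, 1 bar per library. The red *TSPAN5* segment is 60.6 FPKM in the untransfected and 102 FPKM in the anti-*APC* library, and the segments of the other 5 members together are 67.1 and 61.6 FPKM.

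The other 11 members did not pass the filter, and 7 of these were above 0 in both libraries. *CD37*, *CD53* and *TSPAN32* encode tetraspanins of blood cells. *CD53* was at 0.0290 FPKM in the anti-*APC* library and 0.0530 FPKM in the untransfected library, an estimated 1 and 2 reads, and *TSPAN32* was listed at 0 in both. *PTPRC*, which encodes the pan-leukocyte protein CD45, was at 0.00812 and 0.0148 FPKM. *CD37* was also listed at 0 in both, but its quantification was marked as failed, as was that of *TEAD2* at the same locus, so its 0 is not a measurement.

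*UPK1A* and *UPK1B* encode the tetraspanins of the urothelial plaque. *UPK1A* was at 0.194 FPKM in the anti-*APC* library and 0.604 FPKM in the untransfected library. The ratio of these values corresponds to 5 against 17 reads in lowest terms, and the log2 ratio of -1.63 had an exact interval (Clopper-Pearson) of -3.43 to -0.14. *UPK1B* was at 0 and 0.0195 FPKM, an estimated 1 read in the untransfected library.

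*TSPAN8*, a gene associated with gastrointestinal carcinomas, was at 0.0856 FPKM in the anti-*APC* library and 0.0391 FPKM in the untransfected library, the ratio of 2 reads to 1. A difference is not detectable from so few reads. *TSPAN2* was at 0.119 and 0.289 FPKM, a log2 ratio of -1.28. Its exact interval, taken from 3 against 8 reads in lowest terms, was -3.83 to 0.78, and it is wider than the estimated 9 and 23 reads would give. *TSPAN19* was at 0.146 and 0.133 FPKM, and *TSPAN11* at 0.00740 and 0.0338 FPKM. The values of *TSPAN19* have the ratio of equal read numbers, and those of *TSPAN11* the ratio of 1 read to 5. *TSPAN16*, which the table places at 1 locus with *RAB3D*, was listed at 0 in both libraries.

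Genes whose proteins work with tetraspanins were taken from lists by role. Of 15 genes encoding ADAM10 substrates, 9 passed the filter, with 1 higher and 3 lower by at least 1.5-fold, where 2.56% of all genes were higher and 6.61% lower. *JAG1*, which encodes a Notch ligand, was at 27.1 FPKM in the anti-*APC* library and 8.79 FPKM in the untransfected library, 3.09 times as high. The 3 lower genes were the Notch receptor genes *NOTCH2* (16.5 and 25.8 FPKM, log2 ratio -0.64) and *NOTCH3* (1.57 and 2.89 FPKM, -0.88) and the E-cadherin gene *CDH1* (12.1 and 19.0 FPKM, -0.65). *DLL1*, which encodes another Notch ligand, was below the filter at 0.817 and 1.07 FPKM, a log2 ratio of -0.39.

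Of 16 genes encoding proteins that associate with tetraspanins at the cell surface, 14 passed the filter, with 0 higher and 4 lower, beside the same 2.56% and 6.61% of all genes. *ITGA3*, which encodes the α3 chain of the laminin receptor that binds CD151, was at 25.2 FPKM in the anti-*APC* library and 57.7 FPKM in the untransfected library, so that 43.6% was left. *ITGB4*, the β4 integrin chain, was at 20.0 and 36.8 FPKM with a log2 ratio of -0.88. *CD44*, the hyaluronan receptor gene, was at 71.3 and 111 FPKM with a log2 ratio of -0.64, and *CR2*, a complement receptor gene, was at 1.01 and 1.88 FPKM with -0.90. The chains that pair with these integrins differed little: *ITGB1* was at 206 and 224 FPKM with a log2 ratio of -0.12, and *ITGA6* was at 51.3 and 48.8 FPKM with 0.07. *ZDHHC2*, which encodes an acyltransferase that adds palmitate to CD9 and CD151, was at 33.5 and 22.4 FPKM, 1.49 times as high and just inside the threshold.

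All 14 genes of extracellular vesicles and endosomes passed the filter and all were within 1.5-fold, with a median log2 ratio of -0.00. Most genes were within 1.5-fold, since 2.56% of all genes were higher and 6.61% lower. *SDCBP*, which encodes syntenin, a binding partner of CD63, was at 65.2 FPKM in the anti-*APC* library and 60.9 FPKM in the untransfected library. The lowest was *SDC1*, the syndecan-1 gene, at 15.8 and 23.6 FPKM with a log2 ratio of -0.58, just inside the threshold. Both sheddase genes were also within 1.5-fold, *ADAM17* being at 22.5 and 20.6 FPKM. Over 6 lists, which also include uroplakin and retinal tetraspanin genes and the *TM4SF* genes, 40 of 58 genes passed the filter, with 1 higher, 8 lower and a median log2 ratio of -0.17, beside 2.56%, 6.61% and -0.05 for all genes. The lower gene not named so far was *TM4SF19*, whose product is not a tetraspanin.

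**Figure D5:**
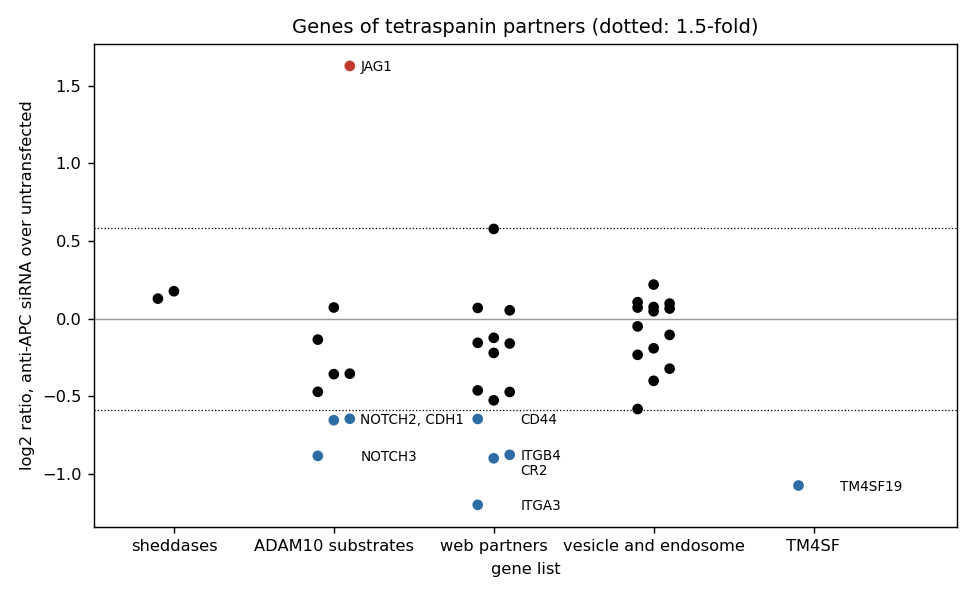
Log2 ratio of anti-*APC* over untransfected FPKM for 40 genes of the lists, 1 point per gene and 1 column per list, with dotted lines at 1.5-fold. *JAG1* at 1.63 is the only gene above the upper line, and 8 genes lie below the lower line.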

How the data were processed

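RNA was measured in 3 HCT-116 libraries (anti-*APC* siRNA, scrambled siRNA and reagent only), of which the one with scrambled siRNA is not analysed here. Single-read TruSeq libraries were used. Cufflinks, Cuffdiff and hg19 are named in the submitters' processing notes, while the aligner and the versions are not given in the sources used here. The deposited values are FPKM, normalised by the authors to transcript length and library size. The authors' columns of fold change, test statistic, p-value, q-value and significance were not used. Cuffdiff's quantification status was read.

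The log2 ratio of FPKM, anti-*APC* over untransfected, was computed without a pseudocount. Genes with a mean of at least 1 FPKM and above 0 in both libraries were counted as higher or lower at 1.5-fold. No p-value was computed. Members of the family and the gene lists were chosen with earlier results of these data known. All members were named, and of the lists *ADAM10* and genes past 1.5-fold. Other list genes within 1.5-fold or below the filter, the example markers and *PTPRC* were named after their values were seen. *APC* and genes sharing a locus with a member were named as well.

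Depth was estimated from FPKM steps. Of 1030 genes with a mean of at most 0.05 FPKM, 242 (23.5%) had 1 fixed FPKM ratio within 0.002 on the log2 scale, 1.10, taken as equal reads. The 106 genes taken as 1 read gave quartiles of 22100000 and 24200000 reads (anti-*APC*) and 24300000 and 26500000 reads (untransfected). Read estimates used canonical GENCODE 44 transcript lengths, so depth and intervals depend on that annotation. Intervals cover counting error only, by a normal approximation for members above the filter and Clopper-Pearson for low members. The depth estimate and the counting of changed genes were tested on simulated data. Coordinates are GENCODE 44 on GRCh37, 1-based. Promoters are RefSeq on GRCh38.p14, and 23 of 31 members matched. Those not matched were *CD151*, *CD81*, *CD37*, *TSPAN3*, *TSPAN7*, *TSPAN9*, *TSPAN18* and *TSPAN32*. Python 3.11.15, numpy 2.4.6, pandas 2.3.3, scipy 1.17.1 and matplotlib 3.10.9 were used. Alternatives were other FPKM minimums, pseudocounts, centrings, fold thresholds, status OK only, and genes alone at their locus.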

Additional observations from a re-analysis of the deposited data

How the results depend on the processing

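*TSPAN5* kept its direction and stayed past 1.5-fold in all 5 alternatives for its ratio, from 0.74 with log2(FPKM + 1) to 0.80 when centred on the median of all genes, against 0.75. The *APC* ratio was -1.19 with log2(FPKM + 1), against -1.41. At 2-fold, 0 tetraspanins were higher and 0 lower, beside 0.953% and 1.37% of all genes. Against 4 lower members, there were 1 with a mean of at least 5 FPKM (3.77% of all genes lower), 8 with no filter (12.8%), 2 with log2(FPKM + 1) and no filter together (2.41%) and 8 at a lower fold threshold, a ratio of 5 to 4 (18.4%). Higher genes of the partner lists numbered 1 of 40 in the text, beside 2.56% of all genes. With a mean of at least 0.1 FPKM they numbered 3 of 45 (4.43% of all genes), and with no filter 6 of 51 (6.65%). There were 2 of 40 when centred on the median (2.93%) or on the upper quartile (2.84%). At the lower fold threshold there were also 2 of 40 (7.17%). Lower genes of these lists, 8 of 40 in the text (6.61%), numbered 5 of 32 with a mean of at least 5 FPKM (3.77%). They numbered 16 of 40 at the lower fold threshold (18.4%) and 2 of 40 at 2-fold (1.37%). For filters and fold thresholds the setting itself admits more or fewer genes. Under both centrings the second higher gene was *ZDHHC2*, which lies at 1.49-fold uncentred. Centring on genes of like level, chosen after seeing the data, took *CD82* to -0.54, inside 1.5-fold. With log2(FPKM + 1), which shrinks ratios of low genes, *CD82* was at -0.50 and *TSPAN7* at -0.46. The median of the members stayed between -0.17 and -0.10. No result reversed. Scrambled siRNA as the control was not run, since that library was not analysed here. No paired analysis was possible because there was 1 library per condition. Members below 1 FPKM rest on few reads, and counting limits what can be said of them.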

Other observations

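The chromosome was looked at after the values were seen. Of the 6 tetraspanin genes on chromosome 11, the 5 that passed the filter, *CD151*, *TSPAN4*, *CD81*, *CD82* and *TSPAN18*, were all lower in the anti-*APC* library, with log2 ratios from -0.88 to -0.17 and a median of -0.71. The other 15 members that passed had a median of -0.14. All 701 genes of chromosome 11 under the same filter had a median of -0.08, and 10.1% of them were at least 1.5-fold lower. Of the members on this chromosome, *TSPAN4*, *CD82* and *TSPAN18* were lower to that extent. Among all 12063 genes under the filter, 58.6% were lower to any extent, and that share was not computed for chromosome 11. On GRCh37, *CD151* ends 2980 bases before *TSPAN4* begins at 842812, and *CD82* ends 106106 bases before *TSPAN18* begins at 44748015, each pair on the plus strand. *TSPAN32*, listed at 0 in both libraries, ends 57972 bases before *CD81* begins at 2397407, also on the plus strand.

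Relatives outside the naming rule were mostly at or near 0. The uroplakin genes *UPK2*, *UPK3A* and *UPK3B* and the retinal tetraspanin genes *PRPH2* and *ROM1* were at most 0.603 FPKM. Of 6 *TM4SF* genes, whose products have the same number of membrane spans but are not tetraspanins, *TM4SF19* was at 2.08 FPKM in the anti-*APC* library and 4.36 FPKM in the untransfected library, a log2 ratio of -1.07. *TM4SF18* was at 1.32 and 0.580 FPKM, a log2 ratio of 1.19, with a mean just below the filter. The other 4 were at most 0.0519 FPKM in either library.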
